A study of Mus musculus with 9 samples.

Results

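The nucleoporin genes were taken as every gene of the table whose symbol was Nup followed by digits, with or without further letters, together with Nupl1, Nupl2, Tpr, Ranbp2, Seh1l, Sec13, Ndc1, Rae1 and Aaas. This gave 30 genes of the 24060 named genes, chosen by name and not by level. RNA-seq read counts were available for LSKs, the Lineage-low Sca1+ Kit+ fraction of bone marrow that holds the haematopoietic stem and progenitor cells, in 9 libraries labelled as C57BL/6. The label of 4 months for age matches the time since transplantation in the description of the experiment, and the age of the donors was not used here. Marrow of each donor genotype had been engrafted in irradiated CD45.1 hosts, the hosts were given doxycycline for 3 months, and the CD45.2 donor-derived LSKs were sorted. The 3 control libraries carried no NUP98-HOXD13, the 2 NHD13 libraries carried the NUP98-HOXD13 fusion under the Vav promoter, which is active in blood cells, and the 4 libraries labelled NHD13/MSI2 carried the fusion and a doxycycline-inducible MSI2 allele (KH2-Col1A1-tet-on-MSI2 with ROSA26-rtTA). NHD13 mice are a model of myelodysplastic syndrome (MDS), and MSI2 is an RNA-binding protein.

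Nucleoporins build the nuclear pore complex, the channel through the nuclear envelope that lets proteins and RNA pass between nucleus and cytoplasm. The Y complex forms the outer rings and the inner ring complex lines the pore wall, membrane nucleoporins anchor both in the envelope, the central channel carries phenylalanine-glycine repeats that transport receptors bind, and filaments on the cytoplasmic side and a basket on the nuclear side receive cargo. NUP98 is the nucleoporin whose repeats are fused to the HOXD13 homeodomain in the NHD13 model, and NUP98 fusions with homeobox genes are found in myeloid malignancies. The comparisons asked whether the genes of the pore, the parent gene of the fusion included, differed in LSKs that carry the fusion alone or with induced MSI2.

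Promoter windows from RefSeq (GRCm38.p6), each of 300 bases with 250 before and 50 after the transcript start, were found for 25 of the 30 genes and not matched for 5. Sec13, Nup155 and Nup98 are shown because Sec13 and Nup155 had the smallest edgeR p in each direction over control and Nup98 is the parent gene of the fusion. Capitals mark matches on either strand to the GC box GGGCGG, the CCAAT box CCAAT, the ETS-type motif CCGGAAG and the TATA box TATAAA, and the sequences are written along the gene's strand. The windows lie at chr6:113740632-113740931 (minus strand), chr15:8109063-8109362 (plus strand) and chr7:102210117-102210416 (minus strand), in that order, the last being 1 of 2 windows of Nup98.
Sec13: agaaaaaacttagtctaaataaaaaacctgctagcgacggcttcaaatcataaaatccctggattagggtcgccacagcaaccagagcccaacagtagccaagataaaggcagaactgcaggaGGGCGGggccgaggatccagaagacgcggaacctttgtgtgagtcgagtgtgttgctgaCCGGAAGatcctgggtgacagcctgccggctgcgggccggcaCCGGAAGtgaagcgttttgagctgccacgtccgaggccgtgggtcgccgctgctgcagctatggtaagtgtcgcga
Nup155: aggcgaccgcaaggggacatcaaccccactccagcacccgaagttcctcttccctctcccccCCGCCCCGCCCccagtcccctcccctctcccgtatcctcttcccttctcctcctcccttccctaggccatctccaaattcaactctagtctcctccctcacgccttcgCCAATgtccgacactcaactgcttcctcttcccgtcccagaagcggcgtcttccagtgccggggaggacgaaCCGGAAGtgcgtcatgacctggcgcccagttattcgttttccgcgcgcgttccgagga
Nup98: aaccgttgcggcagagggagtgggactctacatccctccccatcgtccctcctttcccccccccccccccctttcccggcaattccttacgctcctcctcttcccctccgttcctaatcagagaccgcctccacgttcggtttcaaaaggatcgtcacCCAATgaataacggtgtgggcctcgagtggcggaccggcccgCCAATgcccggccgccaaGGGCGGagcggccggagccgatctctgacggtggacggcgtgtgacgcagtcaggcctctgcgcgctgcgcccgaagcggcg
The Sec13 window held 1 GC box and 2 ETS-type motifs, that of Nup155 held 2 GC boxes that share a base, 1 CCAAT box and 1 ETS-type motif, and that of Nup98 held 2 CCAAT boxes and 1 GC box. A TATA box was in none of these 3 windows. Over the 28 windows of the 25 genes, of which both Nup37 windows overlap, the GC box was in 67.9%, against 35.7% of the 32851 windows of all genes. The ETS-type motif was in 28.6% of them against 8.9%, the CCAAT box in 46.4% against 37.4%, and the TATA box in 10.7% against 13.6%. The observed over expected CpG ratio exceeded 0.6 in 25 of the 28 windows (89.3%), with a median of 0.894, while 35.8% of all windows exceeded it and their median was 0.384. All windows include those of genes that LSKs do not express, and no test was made.

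The libraries held 19242153 to 23013493 counts. Hoxd13, the partner of the fusion, had 0 counts in the 3 control libraries and lay at 0.648 to 1.13 CPM (counts relative to the TMM-scaled library size) in the other 6. Msi2 lay at 88.0, 77.1, 82.8 and 241 CPM in the libraries labelled NHD13/MSI2, at 139 and 111 CPM in NHD13 and at 223 to 316 CPM in the controls, so it was below both NHD13 libraries in replicates 1 to 3 of the MSI2 label and above them in replicate 4, within the range of the controls, and directions for this group, called NHD13/MSI2 by that label below, rest on it. How far reads of the MSI2 transgene align to the mouse gene was not tested. Replicates 1 and 3 of the controls had 888 and 866 CPM of Xist, against at most 2.33 CPM elsewhere, and the Y-linked Eif2s3y was at 122 to 180 CPM in the 7 other libraries. Sex and genotype are thus partly confounded against the controls, and control replicate 2 alone matches the mutant libraries. Replicate 4 of NHD13/MSI2 stood apart. It was the highest or lowest of the 9 libraries for 49.7% of the tested genes (14.9 to 20.7% for each of the others), and its log2 ratio to the other libraries of its group had an SD of 0.84 across genes, against 0.422 to 0.461 for replicates 1 to 3 and 0.744 between the NHD13 libraries. The counts of called and of non-overlapping genes, and the fold changes of some genes, are therefore also given without it.

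Of the markers that define the sort, Kit was at 1775 to 2254 CPM in the controls, 1932 and 1121 CPM in NHD13 and 908 to 1402 CPM in NHD13/MSI2. Ly6a, which encodes Sca1, was at 79.3 to 89.8 CPM in the controls, 69.0 and 48.3 CPM in NHD13 and 375, 254, 312 and 98.7 CPM in NHD13/MSI2. It was thus below the controls in NHD13 and went the other way from Kit in NHD13/MSI2 alone, by little in replicate 4. Of 7 LSK markers 3 had a log2 fold change above 0 and 4 below it in NHD13/MSI2 over control, and their summed CPM was 4789 to 5256 in the controls, 2989 to 3386 in NHD13 and 2823 to 3674 in NHD13/MSI2. Among markers of other cells, Mpo was at 1195 to 1862 CPM in the controls, 3807 and 2959 CPM in NHD13 and 7845 to 13880 CPM in NHD13/MSI2. The other neutrophil markers did not share this, since over control 1 of the 5 (Mpo) was above 0 and 4 were below it, with a median log2 fold change of −1.71, and Ngp lay at 425 to 1181 CPM in the controls and 137 to 285 CPM in NHD13/MSI2. The sum of all 5, set by Mpo in NHD13/MSI2, was 2056 to 3735, 3116 to 4314 and 8342 to 14290 CPM in the 3 groups in that order. The sum of 3 macrophage markers was 51.5 to 61.1, 211 to 229 and 689 to 956 CPM, with 3 of 3 above 0 over control. For 4 B cell markers, mainly Cd79a in NHD13/MSI2, it was 0.285 to 7.24, 1.68 to 39.0 and 129 to 273 CPM. Of 3 endothelial markers, Pecam1, which myeloid cells also express, was at 150 to 173, 301 to 340 and 437 to 558 CPM. Kdr was at most at 0.13 CPM in NHD13/MSI2 against 0.38 to 1.60 CPM in the controls. Cdh5 was at or below 0.44 CPM everywhere, and the sum of the 3 was 150 to 174, 303 to 341 and 438 to 559 CPM. The sum of 3 megakaryocyte markers was 63.1 to 151, 68.7 to 514 and 11.4 to 31.99 CPM. That of 4 erythroid markers was, with Hba-a1 at 0 everywhere, 10.0 to 14.6, 2.03 to 10.6 and 0.499 to 3.53 CPM. T cell markers, 4 in all, summed to at most 10.97 CPM in all 9 libraries. The part of cell make-up in the values below was not tested, and in bulk RNA fewer cells of a type and less RNA per cell cannot be told apart.

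Nucleoporin transcripts were expressed over a wide range, with 29 of the 30 genes passing the filter on low counts that left 13355 genes for testing. Per kilobase of the longest annotated transcript, Nup62, the core of the central channel, had the highest level in the controls at 103 ± 12.6 CPM per kb (SD, n = 3). It was followed by 5 Y complex genes, Sec13 at 80.0 ± 2.83, Seh1l at 79.1 ± 1.88, Nup85 at 78.3 ± 6.29, Nup37 at 69.9 ± 4.92 and Nup107 at 61.7 ± 1.47 CPM per kb. Sec13, Seh1l and Nup85 lie within their SDs of each other. Sec13 is also a subunit of the COPII vesicle coat and Seh1l of a complex that regulates mTORC1, so their transcripts are not used by the pore alone. Nup133, a Y complex member too, was at 14.7 ± 1.15 CPM per kb, so levels within a complex that is built in equal copies differed several-fold at this scale. At the low end lay Nupl1 at 9.02 ± 1.21, Nup35 at 7.604 ± 0.55 and Nupl2 at 4.86 ± 1.08 CPM per kb. Nup210l, a paralogue of the membrane nucleoporin Nup210, was at 0.224 ± 0.0724 CPM per kb, and Nup62cl had 1 count in control replicate 3 and 0 in the 8 others, where up to 3 counts are allowed by a count of 0. Nup62 overlaps the readthrough gene Nup62-il4i1, which was at 0.407 to 1.15 CPM. The longest transcript need not be the one LSKs use, so this order is approximate. Summed over the 30 genes, nucleoporins took 3935 to 4193 CPM in the controls, 3648 and 4017 CPM in NHD13, and in NHD13/MSI2 3858 to 4109 CPM in the first 3 replicates and 5189 CPM in replicate 4. The last sum includes Nup98 at 1004 CPM and rests on the TMM factor of 0.785 of that library. It is no general rise, since replicate 4 was the highest of the 9 libraries for 9 of the 29 tested genes and the lowest for 9.

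**Figure D1:**
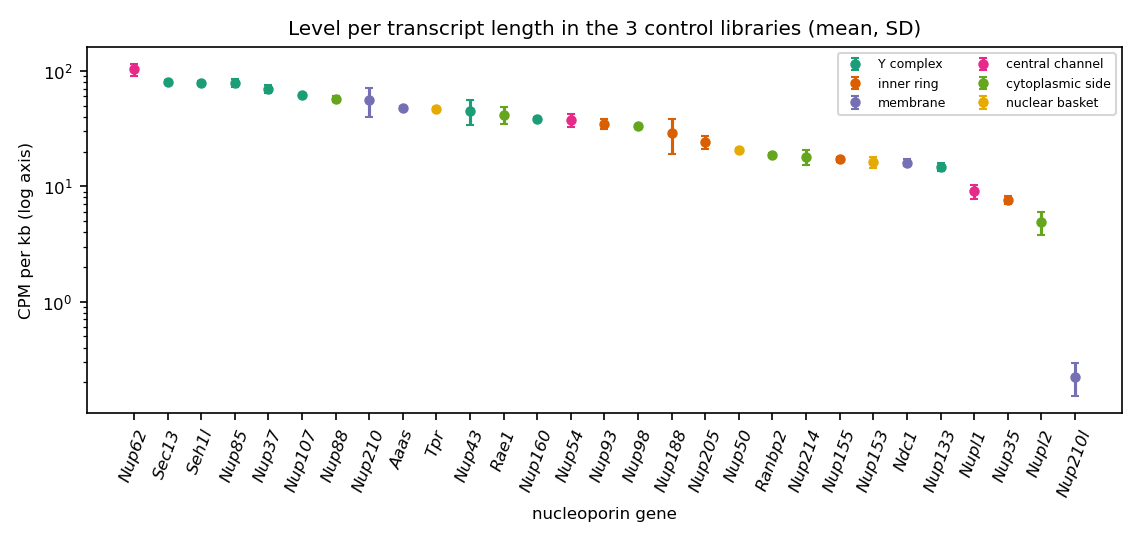
Level of the 29 tested nucleoporin genes in CPM per kilobase of transcript (log axis), as mean and SD of the 3 control libraries, coloured by subcomplex. Nup62 (103) lies at the top, Sec13, Seh1l and Nup85 lie close together at 78.3 to 80.0, and Nup210l (0.224) lies far below the rest.

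No nucleoporin gene passed an adjusted p under 0.01 in any of the 3 comparisons (quasi-likelihood test of edgeR, Benjamini-Hochberg adjustment over all tested genes). In NHD13/MSI2 over NHD13, 0 of the 29 genes were called where 3.17% of the 13355 tested genes were. In NHD13/MSI2 over control 0 were called against 11% of all genes, and in NHD13 over control 0 against 1.03%. At an unadjusted p under 0.05 in the same test the counts were 3 of 29 (2 higher, 1 lower; all genes 21.7%), 5 of 29 (1 higher, 4 lower; 32.8%) and 0 of 29 (13.5%), in that order. DESeq2 at an adjusted p under 0.01 called 1 nucleoporin gene (all genes 9.63%), 3 (19.4%) and 0 (4.45%). Without replicate 4 of NHD13/MSI2, edgeR called 0 (all genes 4.86%), 1 (15.5%) and 0 (1.89%), and DESeq2 called 1 (13.4%), 5 (25.8%) and 0 (7.47%). The median log2 fold change of the 29 genes was −0.082, −0.11 and −0.11, against −0.028, −0.011 and 0.017 over all tested genes, with 15, 17 and 21 of the 29 below 0. The median over NHD13 became 0.16 when replicate 2 of NHD13 was left out and −0.0033 when NHD13/MSI2 replicate 4 was, so its sign rests on single libraries. Without the TMM factors, that is on library totals alone, both medians of NHD13/MSI2 moved by more than 0.1 (members −0.27 and −0.29, all genes −0.23 and −0.22 over NHD13 and control). The TMM factors were 0.785 in replicate 4, 0.969 to 0.974 in replicates 1 to 3 of NHD13/MSI2 and 1.05 to 1.09 in the 5 other libraries. The calls over all genes in NHD13/MSI2 over control were then 401 higher and 1085 lower, against 599 and 875 with TMM.

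Groups did not overlap in NHD13/MSI2 over NHD13 for 9 of the 29 genes, 5 higher and 4 lower, where 29.9% of all tested genes did not overlap. In NHD13/MSI2 over control this held for 9, of which 3 were higher and 6 lower (all genes 35.7%), and in NHD13 over control for 7, of which 2 were higher and 5 lower (37.4%). The shares of the nucleoporin genes were thus near to or below those of all genes. Both NHD13/MSI2 comparisons share these 4 libraries, and both comparisons over control share the 3 controls. On TMM-scaled CPM, Nup107 and Sec13 lay above both other groups in all 4 NHD13/MSI2 libraries, and Nup155, Nup35, Nup85 and Aaas lay below both. On library totals Nup107 was at 202 to 208 CPM in NHD13/MSI2 and 203 to 211 CPM in the controls, so its place above the controls rests on the scaling. Of the 5 genes higher over NHD13, Nup210, Nup210l, Nup50 and Sec13 overlapped NHD13 on library totals, and Nup107 did not. The 4 lower genes stayed apart from NHD13 on library totals too.

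**Figure D2:**
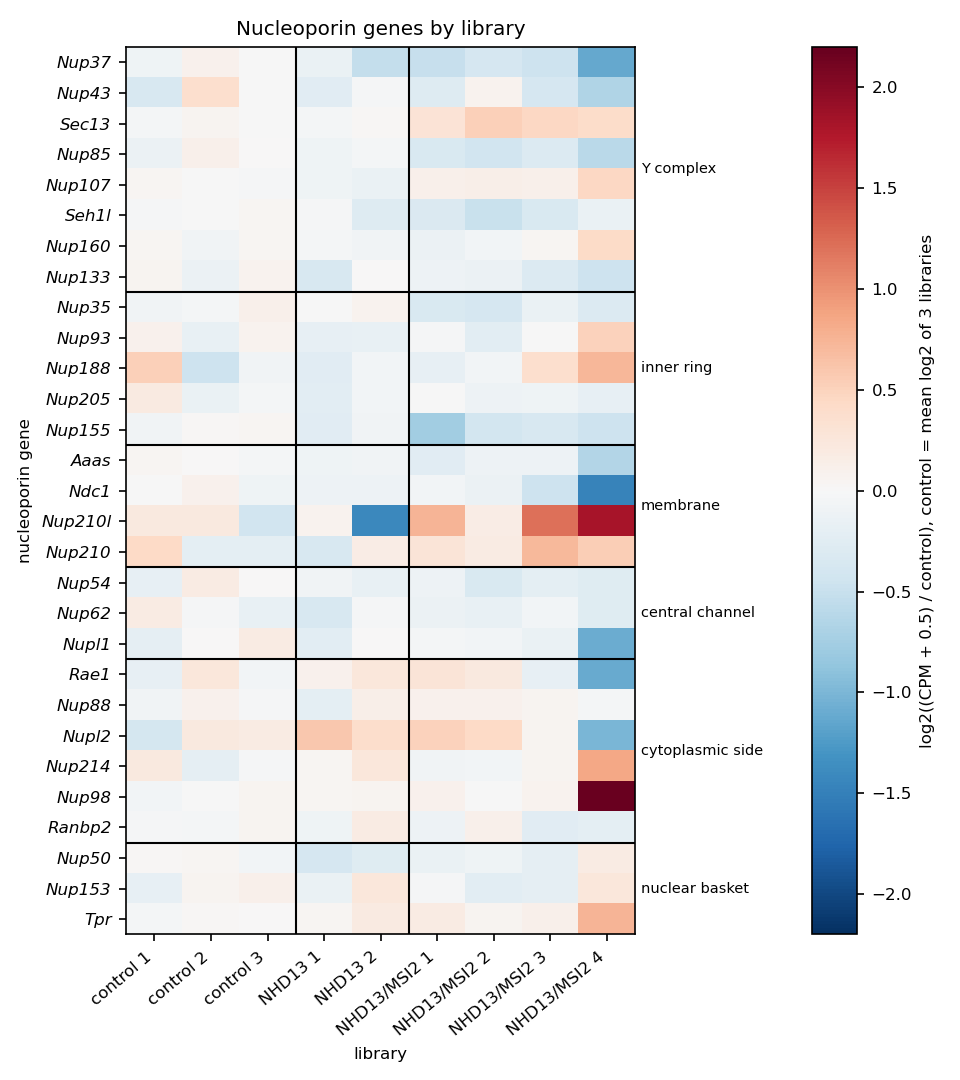
Expression of the 29 tested nucleoporin genes (rows, by subcomplex) in each of the 9 libraries (columns), as log2 of CPM plus 0.5 minus the mean of that value in the 3 controls. Most cells are pale, the Sec13 row is red and the Nup155 and Nup85 rows blue in the 4 NHD13/MSI2 libraries, and the strongest colours are in NHD13/MSI2 replicate 4.

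The Y complex held 4 of the 5 genes with an unadjusted p under 0.05 in NHD13/MSI2 over control, Sec13, Nup85, Nup37 and Seh1l, a limit that 32.8% of all tested genes passed. Sec13 (chromosome 6, 113728062 to 113740743, minus strand) was at 105, 112 and 108 CPM in the controls and 105 and 110 CPM in NHD13, against 133, 156, 148 and 143 CPM in NHD13/MSI2. All 4 NHD13/MSI2 libraries lay above the other 5, whose values were close together. Its fold was 1.35 over NHD13 (log2 0.43, standard error 0.13, 95% interval 0.14 to 0.73, edgeR adjusted p = 0.0804, DESeq2 adjusted p = 0.00214). Over control it was 1.34 (log2 0.42, standard error 0.12, edgeR adjusted p = 0.0279, DESeq2 adjusted p = 0.000387), which misses 0.01 in edgeR and passes it in DESeq2. Without replicate 4 the log2 fold change over control was 0.44 and passed in edgeR too (adjusted p = 0.00891), while that over NHD13 was 0.46 (adjusted p = 0.0253). On library totals without the TMM factors replicate 4 of NHD13/MSI2 was at 112 CPM, within the 112 to 119 CPM of the 5 other libraries, while replicates 1 to 3 were at 129 to 152 CPM. The separation of Sec13 in replicate 4 therefore rests on the scaling of that library, and that in replicates 1 to 3 does not. Sec13 in NHD13 over control had a log2 fold change of −0.0071 (95% interval −0.31 to 0.30).

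Nup85, which sits on the arm of the Y complex to which Seh1l binds, had lower values in NHD13/MSI2. It was at 160, 188 and 176 CPM in the controls, 163 and 169 CPM in NHD13 and 137, 129, 141 and 116 CPM in NHD13/MSI2, with no overlap between the last group and the other 5 libraries. The log2 fold change was −0.42 over control (standard error 0.13, edgeR adjusted p = 0.0428, DESeq2 adjusted p = 0.00271). It was −0.34 over NHD13 (standard error 0.14, edgeR adjusted p = 0.191), where DESeq2 gave an adjusted p of 0.0911. Nup37, a peripheral Y complex subunit, was at 83.0, 95.6 and 89.0 CPM in the controls, 80.8 and 62.0 CPM in NHD13 and 62.7, 68.5, 64.4 and 40.6 CPM in NHD13/MSI2. Its NHD13/MSI2 libraries lay below all controls but overlapped NHD13 replicate 2. Over control the log2 fold change was −0.59 (standard error 0.19, edgeR adjusted p = 0.0562), and −0.44 without replicate 4 (edgeR adjusted p = 0.0219, DESeq2 adjusted p = 0.00343). Seh1l was at 274 to 287 CPM in the controls, 274 and 229 CPM in NHD13 and 200 to 252 CPM in NHD13/MSI2. Its log2 fold change over control was −0.32 (standard error 0.13, edgeR adjusted p = 0.134, DESeq2 adjusted p = 0.0707). Without replicate 4 it did not pass in edgeR (adjusted p = 0.0194). DESeq2 without replicate 4, a fit chosen after seeing the data, called Seh1l (log2 fold change −0.38, adjusted p = 0.00125) beside Sec13, Nup155, Nup85 and Nup37. Nup107 was at 174 and 179 CPM in NHD13 and 208 to 265 CPM in NHD13/MSI2 (log2 fold change 0.33, edgeR adjusted p = 0.244). The remaining Y complex genes Nup160, Nup133 and Nup43 overlapped between groups. Of the 8 Y complex genes 0 were called by edgeR in each comparison, and in NHD13/MSI2 over control 3 had a log2 fold change above 0 and 5 below. In NHD13 over control all 8 were below 0 (log2 fold changes of −0.32 to −0.0071), with 0 of them at an unadjusted p under 0.05 (all genes 13.5%). This was not particular to the Y complex, since the 4 membrane and 3 tested central channel genes were all below 0 too. Of the 29 nucleoporin genes 21 were below 0 and 8 above it, and 5 of the latter are in the list of the cytoplasmic side, Nup98 and Rae1 included. Replicate 2 was the only control library that shares the Y-linked expression of the mutant libraries. It was at 112 CPM for Sec13, 188 for Nup85 and 95.6 for Nup37. For these genes NHD13/MSI2 overlapped none of the controls, so that this control lies outside its range follows and carries no information on sex. A comparison within one sex has 1 control library and was not tested.

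**Figure D3:**
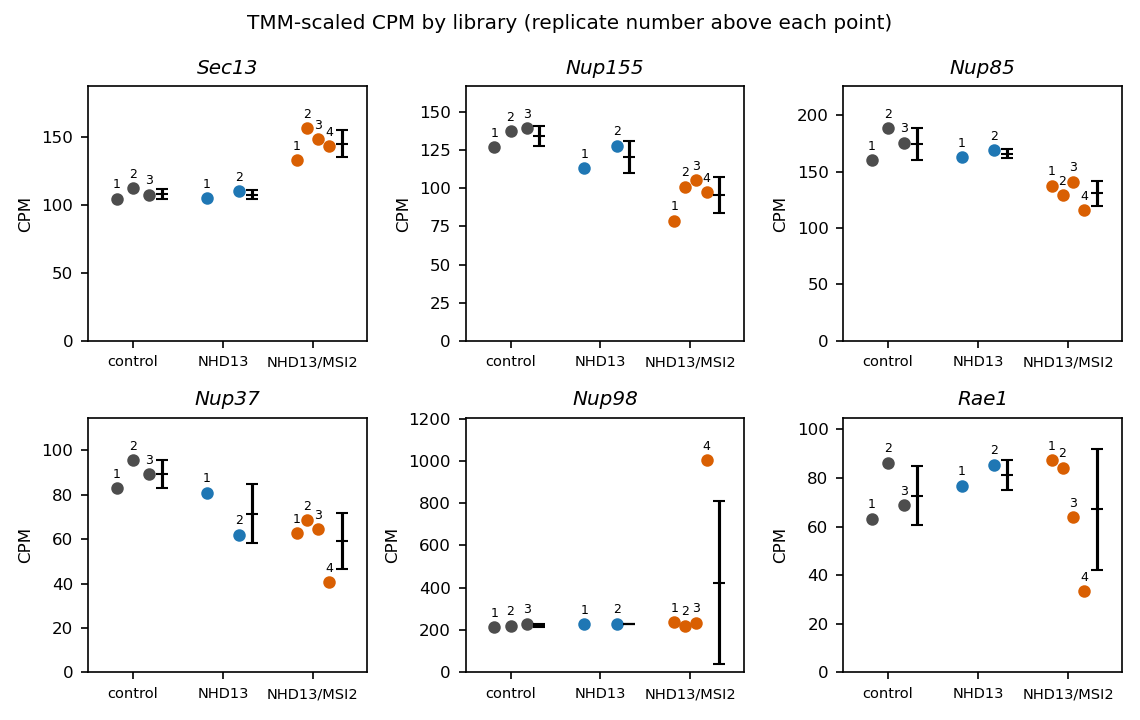
TMM-scaled CPM of 6 nucleoporin genes in each library (points, numbered by replicate) with the group mean and SD beside them (control n = 3, NHD13 n = 2, NHD13/MSI2 n = 4). Sec13 is higher (133 to 156) and Nup155 and Nup85 are lower in all 4 NHD13/MSI2 libraries, while Nup98 and Rae1 depart in replicate 4 alone (1004 and 33.3).

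In the inner ring, Nup155, the subunit that contacts both the membrane and the other scaffold proteins, had the lowest fold change over control. Nup155 (chromosome 15, 8109273 to 8161247, plus strand) was at 127, 137 and 139 CPM in the controls, 113 and 128 CPM in NHD13 and 78.6, 101, 105 and 97.6 CPM in NHD13/MSI2. The 4 NHD13/MSI2 libraries lay below the 5 others, and the NHD13 libraries lay at the lower end of the controls or under it. Its log2 fold change was −0.49 over control (standard error 0.14, 95% interval −0.80 to −0.19, edgeR adjusted p = 0.0303, DESeq2 adjusted p = 0.00543) and −0.33 over NHD13 (edgeR adjusted p = 0.246). Leaving out replicate 4 gave the same −0.49 over control (edgeR adjusted p = 0.0225). Nup35, which binds Nup155, was at 11.2 to 12.8 CPM in the controls, 11.7 and 12.4 CPM in NHD13 and 9.08 to 10.6 CPM in NHD13/MSI2, without overlap and without a call. The large scaffold gene Nup188 was more variable, at 226, 116 and 150 CPM in the controls, 134 and 152 CPM in NHD13 and 140, 152, 205 and 262 CPM in NHD13/MSI2. Its groups overlapped (log2 fold change over NHD13 0.41, standard error 0.32, edgeR adjusted p = 0.512). Nup93 and Nup205 overlapped between NHD13/MSI2 and both other groups.

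Among membrane nucleoporins, Nup210 (gp210), a transmembrane protein of the pore's lumenal ring, was at 519, 328 and 327 CPM in the controls, 298 and 428 CPM in NHD13 and 466, 433, 628 and 557 CPM in NHD13/MSI2. On TMM-scaled CPM the NHD13/MSI2 libraries were above both NHD13 libraries but overlapped control replicate 1 (log2 fold change 0.52 over NHD13, standard error 0.26, edgeR adjusted p = 0.294, and 0.41 over control, adjusted p = 0.249). On library totals NHD13/MSI2 replicates 2 and 4 (421.4 and 437 CPM) lay below NHD13 replicate 2 (450.1 CPM), so the separation from NHD13 rests on the scaling. Nup210l, named after its values were seen since its mean of 40 counts is under the minimum of 50, was at 1.33 and 0.148 CPM in NHD13 and 2.43, 1.446, 3.53 and 5.65 CPM in NHD13/MSI2 (log2 fold change 2.12, edgeR adjusted p = 0.202), with 0.80 to 1.52 CPM in the controls. Ndc1, which anchors the scaffold to the membrane, was at 72.5, 78.7 and 68.9 CPM in the controls, 67.8 and 67.8 CPM in NHD13 and 70.2, 67.1, 53.5 and 26.3 CPM in NHD13/MSI2. Only replicate 4, and less so replicate 3, was below the rest (log2 fold change over control −0.43, standard error 0.28, edgeR adjusted p = 0.33, and −0.20 without replicate 4). Aaas was at 83.9 to 89.7 CPM in the controls, 81.1 and 82.4 CPM in NHD13 and 55.5 to 80.6 CPM in NHD13/MSI2, without a call. The central channel genes Nup62, Nup54 and Nupl1 had log2 fold changes of −0.29 to 0.023 in both NHD13/MSI2 comparisons, and 0 of these 3 tested genes passed an unadjusted p under 0.05 in edgeR, where 21.7% (over NHD13) and 32.8% (over control) of all tested genes did.

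Listed here with the cytoplasmic side, as was its partner Rae1, was Nup98 (chromosome 7, 102119398 to 102210176, minus strand), whose transcript also encodes Nup96 of the Y complex. Neither is meant as a protein of that side alone. Nup98 was at 213, 221 and 230 CPM in the controls, 228 and 230 CPM in NHD13, and 237, 221, 234 and, in replicate 4, 1004 CPM in NHD13/MSI2. The first 8 libraries lay within 213 to 237 CPM, and replicate 4 was 4.35 times the mean of the other 3 of its group. Nup98 was close between NHD13 and control (log2 fold change 0.047, edgeR adjusted p = 0.997, and 0.038 with a standard error of 0.087 without replicate 4), so carrying the fusion went with no detectable rise in reads assigned to mouse Nup98. How far reads of the fusion transgene align to mouse Nup98 was not tested. NHD13/MSI2 over NHD13 gave a log2 fold change of 0.89 (standard error 0.60, edgeR adjusted p = 0.453) with replicate 4 and 0.030 (95% interval −0.17 to 0.23) without it. The rise was thus carried by 1 library, and on library totals alone replicate 4 was at 788 CPM against 215 to 230 CPM in replicates 1 to 3.

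Rae1, the mRNA export factor that binds Nup98, was at 63.2, 86.2 and 68.7 CPM in the controls, 76.8 and 85.5 CPM in NHD13 and 87.4, 84.2, 63.9 and 33.3 CPM in NHD13/MSI2. Its replicate 4 lay below the other 8 libraries, in the opposite direction to Nup98, and the groups overlapped (log2 fold change over NHD13 −0.27, standard error 0.33, edgeR adjusted p = 0.70, and −0.035 without replicate 4). Nupl2, a cofactor of mRNA export, was at 10.5, 16.2 and 15.8 CPM in the controls, 21.3 and 18.2 CPM in NHD13 and 20.02, 19.1, 14.5 and 6.68 CPM in NHD13/MSI2. Nup214, which with Nup88 forms the platform for mRNA export and is itself a fusion partner in leukaemia, was at 137, 102 and 115 CPM in the controls, 121 and 139 CPM in NHD13 and 112, 112, 122 and 213 CPM in NHD13/MSI2. For both, replicate 4 lay outside the 8 others. NHD13 lay above the 3 controls for Nupl2 and overlapped them for Nup214, and neither gene was called. The log2 fold change over NHD13 was −0.39 for Nupl2 (standard error 0.39, edgeR adjusted p = 0.634) and 0.10 for Nup214 (standard error 0.27, edgeR adjusted p = 0.877). Without replicate 4 that of Nup214 was −0.16, below 0. Nup88 and Ranbp2, the largest filament protein, overlapped between all groups.

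In the nuclear basket, Nup50, which helps importins release cargo, was at 98.9, 101 and 93.6 CPM in the controls, 75.4 and 81.0 CPM in NHD13 and 87.8, 91.8, 85.0 and 110 CPM in NHD13/MSI2. On TMM-scaled CPM NHD13 was the lowest group, without overlap with either other group (log2 fold change over control −0.32, standard error 0.16, edgeR adjusted p = 0.434, and 0.26 for NHD13/MSI2 over NHD13, adjusted p = 0.357). Neither comparison passed. On library totals NHD13 was at 80.72 and 85.18 CPM and NHD13/MSI2 at 82.45 to 89.31 CPM, so their separation rests on the scaling. The controls stayed above both NHD13 libraries at 101.7 to 107 CPM. Tpr, the coiled-coil protein that builds the basket, was at 340 to 358 CPM in the controls, 361 and 402 CPM in NHD13, and in NHD13/MSI2 368 to 396 CPM in the first 3 replicates and 590 CPM in replicate 4. Both mutant groups lay above the controls on TMM-scaled CPM, without a call. On library totals NHD13/MSI2 replicates 1 and 3 (384 and 367 CPM) lay within the controls at 364 to 385 CPM, and replicate 2 (358 CPM) lay below them. The log2 fold change was 0.30 for NHD13/MSI2 over control and 0.13 without replicate 4. Nup153 overlapped between groups.

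**Figure D4:**
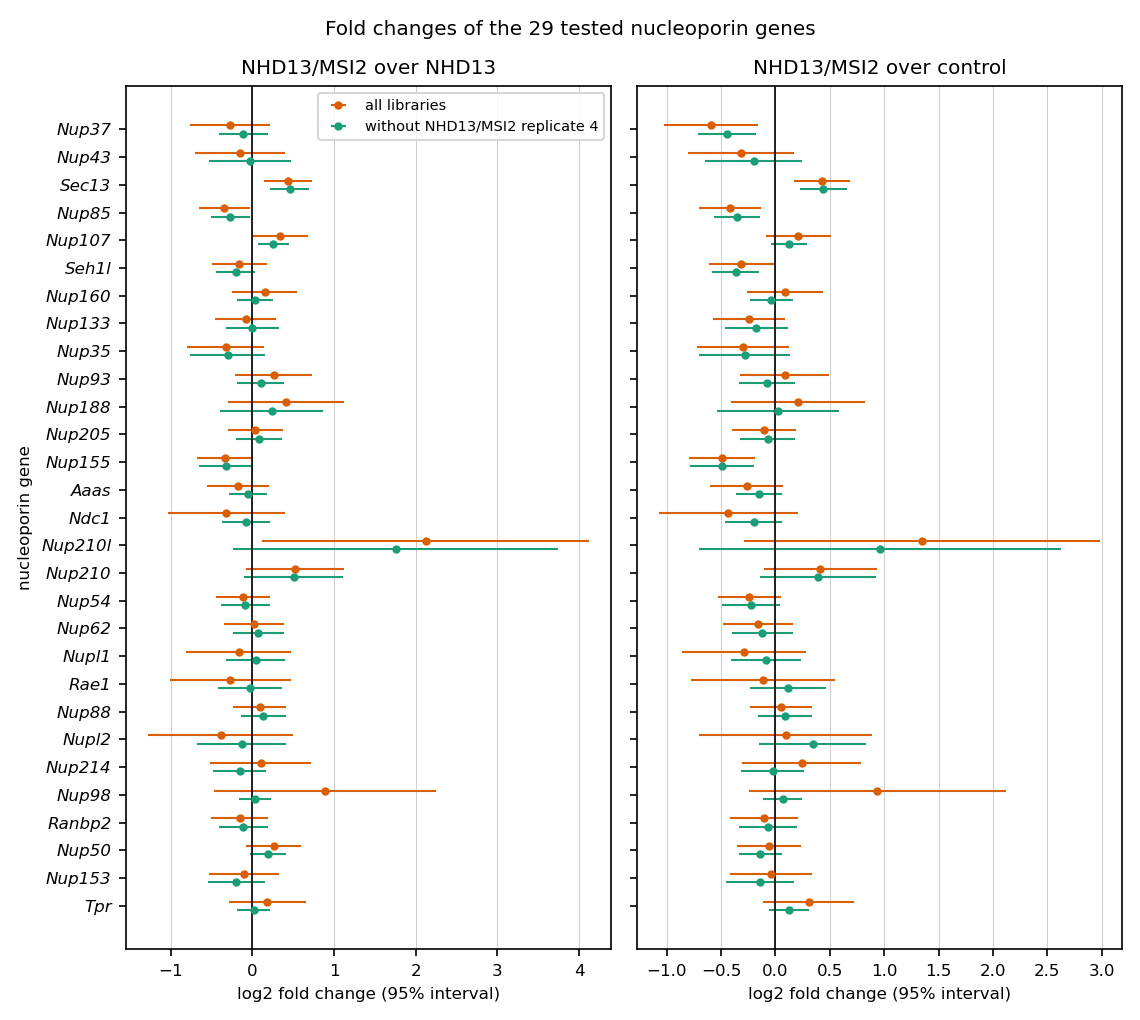
Log2 fold change with 95% interval of each tested nucleoporin gene in NHD13/MSI2 over NHD13 (left) and over control (right), from all libraries and without NHD13/MSI2 replicate 4. The interval of Nup98 narrows from −0.47 to 2.25 to −0.17 to 0.23 over NHD13, while Sec13 stays above 0 in each fit.

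Replicate 4 of NHD13/MSI2 was an extreme of the 9 libraries for 18 of the 29 nucleoporin genes, the highest for 9 and the lowest for 9, where this held for 49.7% of all tested genes. Of the 28 nucleoporin genes with a mean of at least 50 counts, 5 differed more than 2-fold from the mean log2 CPM of the other 3 libraries, Nup98 upward and Rae1, Ndc1, Nupl1 and Nupl2 downward, while none did in the 8 other libraries. Among 10972 genes of this level, 20% differed more than 2-fold in replicate 4 and 1.39 to 10.8% in each of the 8 other libraries. In replicate 4, 187 (1.7%) had a ratio at or above that of Nup98. The ratio rose with transcript length across the 28 genes (Spearman's rho 0.51) and across 10903 genes (0.30), given as a description since these points share 1 library. For the other libraries, each against the rest of its group, rho ran from −0.52 (control replicate 2) to 0.42 (control replicate 1) across the 28 genes. Across the 10903 genes it ran from −0.28 to 0.20. The −0.28 is that of NHD13/MSI2 replicate 1, whose ratio is taken against libraries that include replicate 4, and outside this group the lowest was −0.22. Among the nucleoporin genes a trend of this size was thus also seen in control replicate 2, with the opposite sign, while across the 10903 genes that of replicate 4 was the largest. Long transcripts such as Nup214, Tpr and Nup188 were above 1 and the short Nup37 and Rae1 below it, but Nup155 and Ranbp2, which are long, were not raised. The part of library quality in these values was not tested.

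**Figure D5:**
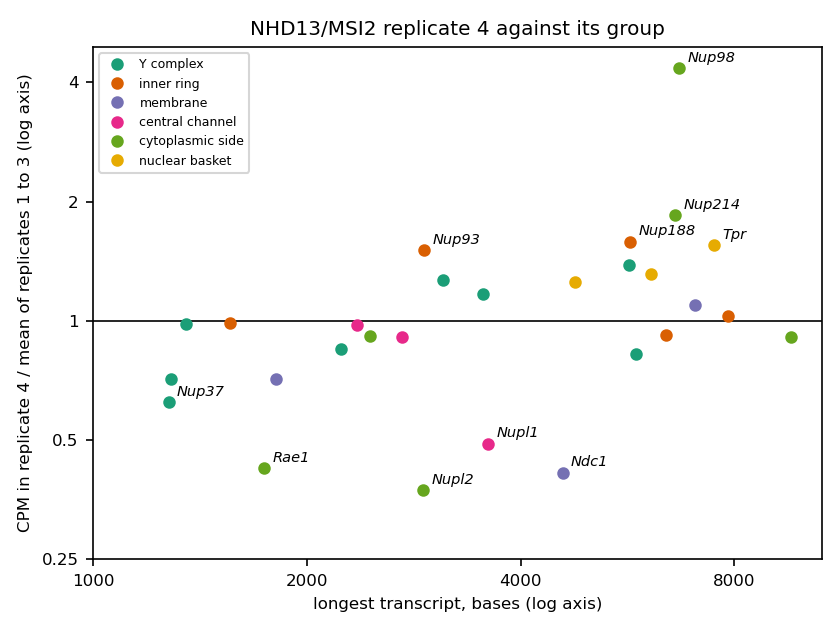
CPM in NHD13/MSI2 replicate 4 divided by the mean of replicates 1 to 3 (log axis) against the length of the longest transcript (log axis) for the 28 nucleoporin genes with a mean of at least 50 counts, coloured by subcomplex. Nup98 lies at 4.35 and Nupl2, Ndc1, Rae1 and Nupl1 lie between 0.374 and 0.489.

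Genes that work with the pore were read from the same fit. Of the other pore and assembly genes 9 were tested, of the transport receptors and Ran cycle 27, of the mRNA export genes 16 and of the proliferation genes 20, and 0 of each were called in the 3 comparisons at an edgeR adjusted p under 0.01. At an unadjusted p under 0.05 the transport list had 1, 5 and 3 genes in NHD13/MSI2 over NHD13, over control and NHD13 over control, the mRNA export list 1, 1 and 1, the proliferation list 2, 4 and 4 and the assembly list 0, 0 and 0, where 21.7%, 32.8% and 13.5% of all tested genes passed that limit. Of 12 nuclear lamina and envelope genes, Syne2, a nesprin that ties the outer nuclear membrane to the cytoskeleton, was the only one called. Syne2 fell in both mutant groups, from 111, 74.8 and 82.2 CPM in the controls to 13.6 and 13.3 CPM in NHD13 (log2 fold change −2.73, standard error 0.38, adjusted p = 0.00541) and 3.78, 5.14, 9.50 and 6.04 CPM in NHD13/MSI2 (log2 fold change −3.87, standard error 0.30, adjusted p = 6.18e-05). Without replicate 4, the importin Ipo7 was higher over NHD13 (log2 fold change 0.49, adjusted p = 0.00826) and lower in NHD13 over control (−0.55, adjusted p = 0.00865), Ipo11 was lower over control (−0.80, adjusted p = 0.00258), and the proliferation marker Mki67 was lower over control (−0.54, adjusted p = 0.00999). The median log2 fold change of the proliferation list was 0.088, −0.24 and −0.32 in the 3 comparisons, which for both comparisons over control lies further below 0 than that of the nucleoporin genes.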

How the data were processed

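RNA was sequenced from 9 samples of sorted LSKs. The authors deposited 1 table of raw read counts per gene, and their processing notes name STAR, HTSeq, DESeq and the build mm9. Versions and strand use are not given in the sources used here. In the table the gene names after the 11 symbols turned into dates (n-Mar) stand 2 rows too high. The names were moved down by 2 rows, which placed 90% of 80 ribosomal protein genes above 50 CPM, against 75% without the move, and Xist and Y-linked genes at high levels, so 11942 names moved, and 13 rows without a name, holding 0.0253 to 0.0323% of the counts of a library, were left out. Values for these genes rest on that correction.

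Groups came from the sample labels. Counts were tested with edgeR 4.0.16 (R 4.3.3) by the quasi-likelihood test on all 9 libraries in one model of group, after filterByExpr and TMM scaling, with Benjamini-Hochberg adjustment over 13355 genes and a threshold of 0.01. DESeq2 1.42.0 was an alternative. The analysis was tested on simulated data. Transcript lengths and positions came from GENCODE M21 (GRCm38), not the authors' build, and promoters from RefSeq. Within each group all pairs of libraries exceeded sampling noise (chi-square 19.6 to 454 per gene), and the study gives its group sizes as transplanted animals but the labels tie no library to an animal or donor, so p-values measure the spread between these libraries. Intervals and floors (3 counts per library) cover counting error only where they come from counts.

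Genes named with full values were those past the threshold, Nup98 and Rae1, and the 3 with the largest fold change each way per comparison among those with a mean of at least 50 counts. The members and lists were chosen with earlier results of these data known. The assembly list held 10 genes, of which Tmem48 was not in the table.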

Additional observations from a re-analysis of the deposited data

Results flagged for a closer look

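Within the 4 libraries labelled NHD13/MSI2, 5 of the 29 tested nucleoporin genes had one library far from the other 3 by Dixon's test, and for each of them it was replicate 4. These were Nup98 at 1004 CPM (221 to 237 CPM in replicates 1 to 3), Tpr at 590.1 CPM (368 to 396), Nup107 at 264.6 CPM (208 to 209), Nup214 at 213.3 CPM (112 to 122) and Nupl1 at 14.86 CPM (29.2 to 31.2). By chance about 5% of such groups are marked, and over all 13093 genes checked 16.1% were, 1521 of those 2105 for replicate 4. On library totals, without the TMM factor of 0.785 of replicate 4, its Nup107 level was 208 CPM, close to the 202 to 203 CPM of the others, while Nup98 was at 788 CPM, Tpr at 463, Nup214 at 167 and Nupl1 at 11.7 CPM.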

How the results depend on the processing

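The count of nucleoporin genes past an adjusted p of 0.01 was 0 in each comparison with RLE factors, without a filter on low counts, with a minimum mean of 50 counts, with a robust fit and in fits of the compared groups alone. With DESeq2 it was 1 in NHD13/MSI2 over NHD13 (Sec13) and 3 over control (Sec13, Nup155 and Nup85). Over control, it was 3 at an edgeR adjusted p under 0.05 (Sec13, Nup155 and Nup85). The share of all tested genes at that limit is not given here, and 11% already passed 0.01, so the 3 are not read as a result. The count was 1 with the names as deposited, where names after the n-Mar rows stand on counts of other genes. On library totals alone it was 1 (Nup155), an alternative chosen after seeing the data, as was DESeq2 without replicate 4 of NHD13/MSI2. Leaving out one library gave 0 over NHD13 and 0 to 1 over control, the 1 without replicate 4 of NHD13/MSI2, and DESeq2 without replicate 4 gave 1 and 5. Deviations from the group mean of libraries with the same replicate number had correlations of −0.15 to 0.22. Pairs with different numbers were not compared, so these values cannot decide whether the replicate numbers pair the libraries. With the number as a block 0 genes were called in each comparison, and the log2 fold change turned to −0.19 and −0.033 for Nup214 over NHD13 and control, −0.0057 for Nup98 over NHD13, and 0.034 and 0.11 for Rae1 over NHD13 and control. On library totals it turned to −0.13 and −0.011 for Nup214 over NHD13 and control, −0.034 for Nup188 over control and −0.083 for Nupl2 over control. With single libraries left out, values crossing 0 ran from −0.16 to 0.25 (Nup214 over NHD13), −0.027 to 0.36 (Nup214 over control), −0.081 to 0.34 (Nupl2 over control), −0.25 to 0.12 (Rae1 over control), −0.40 to 0.099 (Nup188), −0.41 to 0.15 (Nup210) and −0.051 to 0.028 (Sec13), the last 3 in NHD13 over control. DESeq2 without replicate 4 gave −0.17 and −0.042 for Nup214 over NHD13 and control and 0.10 for Rae1 over control. Of 648 alternative values of the 12 named genes, 613 kept direction and side of the threshold, 24 turned sign, 11 passed the threshold and 0 lost it, and the cause was not tested. NHD13 has 2 libraries, and intervals of about 0.3 on the log2 scale or wider leave small differences undetectable.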

Other observations

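Around Nup98 on chromosome 7 of GRCm38, Pgap2 was at 64.8 CPM in replicate 4 of NHD13/MSI2 (67.2 to 88.2 in the 8 other libraries), Numa1 at 154 (157 to 197) and Rhog at 33.9 (52.2 to 106), all below the others. Stim1 was at 85.9 CPM (45.2 to 79.7) and the low gene Art5 at 11.4 (0.79 to 3.57), both above the others, as Nup98 was. Nras was at 2914 CPM in replicate 4 and at 438 to 594 CPM in the others. These genes were chosen after their values were seen and no test was made.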
